A study of Danio rerio with 12 samples.

Results

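The genes described here encode the sodium pump, the Na+/K+-ATPase of the plasma membrane, and SERCA, the calcium pump of the sarcoplasmic and endoplasmic reticulum. The members described were 9 genes: the sodium pump α subunit genes atp1a2a, atp1a3a and atp1a3b, the β subunit gene atp1b1a, and the SERCA genes atp2a1, atp2a1l, atp2a2a, atp2a2b and atp2a3. Of these, 8 were matched to an Ensembl identifier by symbol and atp1b1a by elimination, among 31778 genes in the count matrices. They comprise 4 sodium pump and 5 SERCA genes.

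The sodium pump moves sodium out of the cell and potassium in at the cost of ATP. Its α subunit binds the ions and ATP, and its β subunit brings the α subunit to the plasma membrane. In vertebrates, α2 is known from muscle and glia, and α3 from neurons. SERCA returns calcium from the cytosol to the reticulum, which lets muscle relax after a contraction. SERCA1 is the pump of fast skeletal muscle, SERCA2 that of heart, slow muscle and most other cells, and SERCA3 is known from epithelial, endothelial and blood cells. The α subunit and SERCA are multi-pass membrane proteins, a class whose mRNAs are in general translated by ribosomes on the ER membrane.

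Libraries came from pooled zebrafish larvae at 5 dpf in the Tg(Xla.Eef1a1:mlsEGFP)cms1 background, strain AB, which labels mitochondria with EGFP in both genotypes. WT larvae came from incrosses of chchd4a+/+ siblings in that background. The mutants, chchd4a-/- (mia40a-/- in the labels, a loss of the import factor of the mitochondrial intermembrane space), were sorted under a fluorescence microscope from incrosses of heterozygous fish. Genotype therefore cannot be told apart from parentage and sorting. Whether both genotypes were fractionated together is not stated. The membrane-bound (MB) fraction, with mitochondria and ER, was pelleted at 14000 g, and the high-speed (HS) fraction, with free polysomes and some ER, was pelleted from its supernatant at 100000 g. Each of the 4 groups had 3 libraries, 12 in all.

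Gene totals ran from 45621437 to 96059830 counts per library, and spike-ins took 1.77 to 30.0% of all counts, most in WT HS replicate 1. This library also stood apart from its group, with a correlation of log2 CPM over 9612 genes of 0.882 and 0.850 with replicates 2 and 3, which correlated with each other at 0.991. The mRNA of the mutated gene, chchd4a, was at 3.76, 11.99 and 12.4 CPM in WT HS and at 17.5, 11.3 and 27.0 CPM in mutant HS. In MB it was at 4.58, 5.29 and 5.48 CPM in WT and at 6.71, 7.93 and 8.21 CPM in the mutant. All mutant libraries but 1 (HS replicate 2) lay above all WT libraries of their fraction, so the level of this transcript does not check the genotype labels. Larvae were used whole, so fewer cells of a type and less RNA per cell cannot be told apart.

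To ask where the pump mRNAs lie in WT larvae, MB was compared with HS. The neuronal α3 gene atp1a3a and the SERCA2 gene atp2a2b were 2.51-fold and 2.57-fold higher in MB, and the SERCA3 gene atp2a3 was 1.49-fold higher. The SERCA1 paralog atp2a1l went the other way, 2.67-fold lower in MB. Thus 3 of 9 members were called higher in MB (12.4% of the 23733 genes tested) and 1 lower (13.3%), by edgeR's quasi-likelihood test at a Benjamini-Hochberg adjusted p of at most 0.05 over all genes. The median log2 MB/HS ratio of the 9 members was 0.48, against 0.08 for all genes. At an unadjusted p under 0.05 there were 4 higher (21.8% of genes) and 1 lower (19.7%). Levels are given as CPM, counts scaled to library size with TMM factors, which are not corrected for gene length and are compared only between libraries for the same gene.

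In the mutant, the same comparison placed atp1a3a and atp2a2b in MB again, at 2.38-fold and 2.39-fold, together with atp1a2a, the α2 gene, at 2.41-fold. Here 3 of 9 members were called higher in MB (17% of 23854 genes) and 1, atp2a2a, lower (20%). At an unadjusted p under 0.05 there were 4 higher (23.4%) and 1 lower (25.5%). The members' median was 0.42, against -0.01 for all genes. With 9 members, these counts describe the genes named and are not read as a property of the group.

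Single libraries changed these counts. Without WT HS replicate 1, 6 of 9 members were called higher in MB in WT and 1 lower, with atp1a3b (log2 ratio 1.32), atp1a2a (1.00) and atp2a1 (0.69) added. Calls rose over all genes as well, to 7035 higher and 6591 lower of 23579, against 2948 and 3165 of 23733 with all libraries. Without WT MB replicate 2 or 3 no member was called, and of all genes 0 and 1 were. Without WT HS replicate 2 or 3, 1 member remained called higher and 0 lower, and without WT MB replicate 1, 2 higher and 0 lower. In these fits 574, 879 and 2035 of all genes were called higher and 1570, 2425 and 2037 lower. In the mutant, 2 to 5 members were called higher and 0 to 2 lower when a library was left out, with 5 higher without mutant HS replicate 2 and 2 lower without mutant HS replicate 3. Over all genes, 5903 of 23573 were higher in the former fit and 4293 of 23611 lower in the latter. With all mutant libraries these counts were 4065 and 4779 of 23854.

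**Figure D1:**
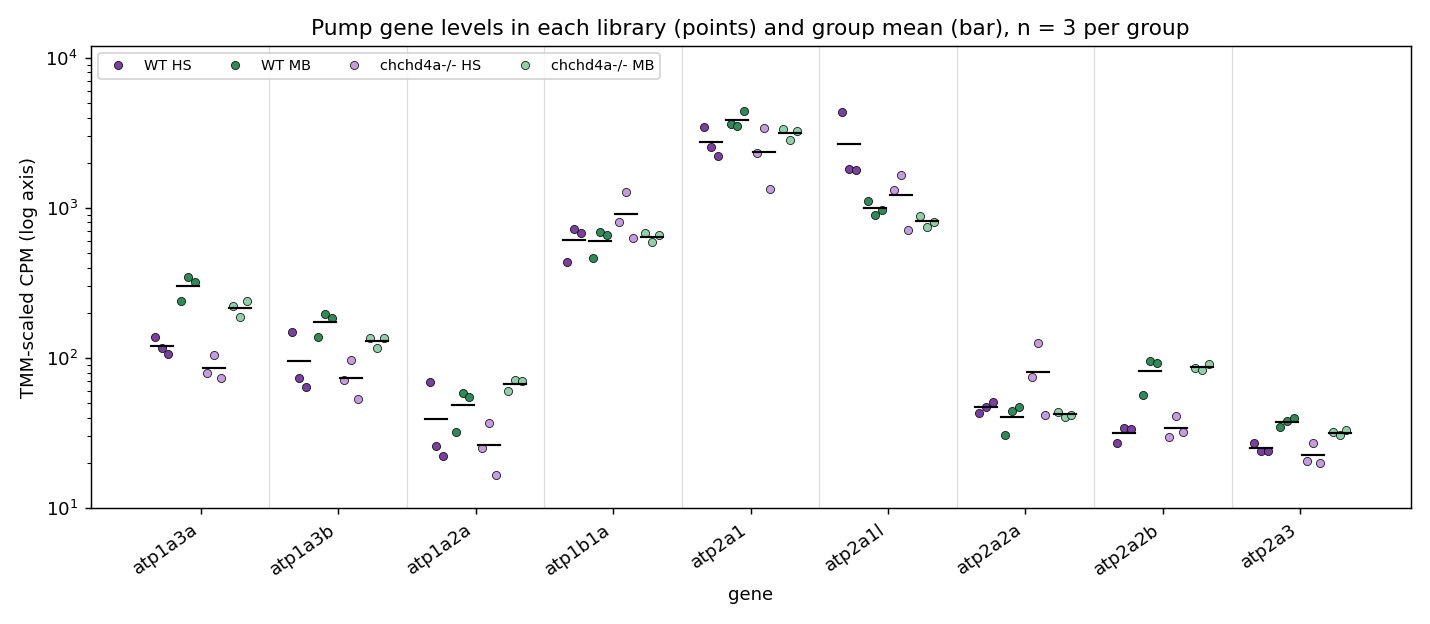
TMM-scaled CPM (log axis) of the 9 pump genes, with 1 point per library and a bar at the group mean, for WT and chchd4a-/- HS (purple) and MB (green). The MB points of atp1a3a and atp2a2b lie above all HS points of the same genotype; heights of different genes are not comparable, since values are not corrected for length.

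The α3 genes were described first among the sodium pump subunits, as the neuronal class. In WT, atp1a3a was at 138, 117 and 106 CPM in HS and at 240, 348 and 322 CPM in MB. Its log2 MB/HS ratio was 1.33 (SE 0.23, adjusted p = 0.0111, edgeR quasi-likelihood test). The 3 MB libraries all lay above the 3 HS libraries, as 4 of 9 members and 26.4% of genes did in WT. In the mutant, atp1a3a was at 78.9, 105 and 73.4 CPM in HS and at 221, 186 and 241 CPM in MB, again without overlap, with a log2 ratio of 1.25 (SE 0.24, adjusted p = 0.00508, edgeR quasi-likelihood test). This gene was called in the mutant under all 15 alternative settings. In WT it was not called without WT HS replicate 2 or 3 or without WT MB replicate 2 or 3, with log2 ratios of 1.14 to 1.30 and adjusted p = 0.05001 to 0.0982 in edgeR.

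Its paralog atp1a3b was at 149.5, 73.3 and 64.4 CPM in WT HS and at 138, 196 and 184 CPM in WT MB. Replicate 1 of HS overlapped the MB range, and the ratio was not called (log2 0.85, SE 0.36, adjusted p = 0.117, edgeR). In the mutant it was at 71.9, 97.5 and 53.0 CPM in HS and at 136, 117 and 135 CPM in MB. These groups did not overlap. Of the 9 members, 5 had all MB libraries above all HS libraries in the mutant (29.5% of genes) and 0 had all below (23.4%). Here the log2 ratio of 0.72 (SE 0.26) had an adjusted p of 0.0564 in edgeR. With the replicate number as a block the adjusted p was 0.0243, and with DESeq2 it was 0.0219.

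The α2 gene atp1a2a was at 69.5, 26.1 and 22.3 CPM in WT HS and at 32.2, 58.0 and 55.1 CPM in WT MB. In HS replicate 1 was high and in MB it was low, so that the groups overlapped (log2 ratio 0.30, SE 0.47, adjusted p = 0.657, edgeR). Mutant libraries stood at 25.3, 37.1 and 16.6 CPM in HS and at 60.4, 71.5 and 70.3 CPM in MB. All MB libraries there exceeded all HS libraries, and the gene was called higher in MB (log2 1.27, SE 0.30, adjusted p = 0.0107, edgeR). That call was lost without mutant HS replicate 1 (log2 1.22, adjusted p = 0.0528, edgeR). In all 12 libraries the estimate of atp1a2a was not a whole number, which marks reads shared with other transcripts. Its level thus rests in part on how those reads were divided. Estimates were also not whole in 11 libraries for atp1a3b and in 7 for atp2a3. Which transcripts shared reads, and how many, was not examined.

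The β1 gene atp1b1a differed least between the WT fractions among the matched members. It was at 433, 721 and 681 CPM in WT HS and at 462, 692 and 657 CPM in WT MB, and replicate 1 was the low library in both. The log2 ratio was -0.02 (SE 0.29, adjusted p = 0.956, edgeR). In the mutant it was at 803, 1284 and 633 CPM in HS and at 679, 590 and 659 CPM in MB (log2 -0.58, SE 0.32, adjusted p = 0.167, edgeR). The groups overlapped in both genotypes, and the gene was called in neither. The α and β subunits are made from separate mRNAs, and the log2 ratio of atp1a3a to atp1b1a within a library, chosen after its values were seen and not tested, was -2.32 ± 0.58 (SD, n = 3) in WT HS and -0.99 ± 0.04 in WT MB. In chchd4a-/- it was -3.35 ± 0.25 in HS and -1.58 ± 0.11 in MB.

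SERCA1 has 2 genes in the list. The fast-muscle gene atp2a1 was at 3443, 2565 and 2202 CPM in WT HS and at 3638, 3500 and 4398 CPM in WT MB. Every MB library exceeded every HS library, but the ratio was not called (log2 0.48, SE 0.28, adjusted p = 0.222, edgeR). In chchd4a-/- it was at 2339, 3394 and 1330 CPM in HS and at 3351, 2819 and 3236 CPM in MB, with overlap and a log2 ratio of 0.33 (SE 0.37, adjusted p = 0.502, edgeR).

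Its paralog atp2a1l was at 4357, 1809 and 1787 CPM in WT HS and at 1118, 901 and 972 CPM in WT MB. All HS libraries lay above all MB libraries, as 1 of 9 members and 20.5% of genes did. The log2 ratio was -1.42 (SE 0.40, adjusted p = 0.0401, edgeR), and it was -0.86 without WT HS replicate 1, where the call held (adjusted p = 0.00903, edgeR). Leaving out any other WT library ended the call (log2 -1.46 to -1.78, adjusted p = 0.0536 to 0.173 in edgeR), as did testing with no count filter (adjusted p = 0.0544, edgeR). In the mutant atp2a1l was at 1310, 1664 and 708 CPM in HS and at 883, 747 and 806 CPM in MB, with overlap (log2 -0.68, SE 0.34, adjusted p = 0.139, edgeR).

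With TMM, the SERCA1 paralogs had opposite signs of the fraction difference. With library totals the log2 MB/HS ratio of atp2a1l was -0.83 in WT and 0.14 in the mutant, and with spike-in totals it was above 0 in both. The log2 ratio of atp2a1 to atp2a1l counts within a library was -0.34, 0.50 and 0.30 in WT HS and 1.70, 1.96 and 2.18 in WT MB. The mutant values were 0.84, 1.03 and 0.91 in HS and 1.92, 1.92 and 2.01 in MB. In both genotypes every MB library lay above every HS library. This pair was chosen after its values were seen and was not tested. Estimates of atp2a1 were whole numbers in all 12 libraries, and those of atp2a1l were not whole in 5.

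With TMM, the SERCA2 paralogs also had opposite signs. With library totals the log2 MB/HS ratio of atp2a2a was 0.31 in WT and -0.19 in the mutant, and with spike-in totals it was above 0 in both. In WT, atp2a2b was at 27.1, 33.9 and 33.4 CPM in HS and at 56.3, 95.0 and 92.7 CPM in MB, with no overlap and a log2 ratio of 1.36 (SE 0.26, adjusted p = 0.0130, edgeR). In the mutant it was at 29.9, 41.0 and 32.2 CPM in HS and at 85.8, 82.7 and 91.9 CPM in MB, with a log2 ratio of 1.26 (SE 0.21, adjusted p = 0.00284, edgeR). The gene was called under all 15 alternatives in the mutant. In WT the call was lost without WT MB replicate 2 or 3 (log2 1.19 and 1.22, adjusted p = 0.0811 and 0.0892 in edgeR).

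The other SERCA2 gene, atp2a2a, known from the zebrafish heart, was at 42.7, 47.3 and 51.0 CPM in WT HS and at 30.6, 44.2 and 47.2 CPM in WT MB. These ranges overlapped (log2 ratio -0.21, SE 0.22, adjusted p = 0.491, edgeR). Mutant libraries stood at 74.4, 127 and 41.7 CPM in HS and at 43.9, 40.6 and 42.0 CPM in MB. The call lower in MB (log2 -1.03, SE 0.36, adjusted p = 0.0499, edgeR) was made although the groups overlapped, and HS replicate 2 carried much of it, with a log2 ratio of -0.51 (adjusted p = 0.111, edgeR) without that library. Leaving out mutant HS replicate 1 or any mutant MB library also ended the call (log2 -0.92 to -1.11, adjusted p = 0.0980 to 0.154 in edgeR), as did a minimum of 10 counts in every library (adjusted p = 0.0520, edgeR). As with atp2a2a, mutant HS was the highest group for heart markers. The 8 matched, none at 0, summed to 96.4 to 146 CPM in WT HS, 51.9 to 70.0 in WT MB, 173 to 234 in mutant HS and 74.9 to 84.9 in mutant MB. Within mutant HS the order was the reverse, with the heart sum at 207, 173 and 234 CPM in replicates 1, 2 and 3. Skeletal muscle markers were also highest in mutant HS, and summed there to 49068, 66756 and 40476 CPM in replicates 1, 2 and 3. That is the order of atp2a2a. The part of these markers in the result was not tested.

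Within a library, the log2 ratio of atp2a2b to atp2a2a was -0.65, -0.48 and -0.61 in WT HS and 0.88, 1.103 and 0.97 in WT MB. The mutant values were -1.31, -1.63 and -0.37 in HS and 0.97, 1.03 and 1.13 in MB. In both genotypes the ratio was higher in every MB library than in every HS library. Its sign is not read, since it depends on gene length. As for SERCA1, the pair was chosen after its values were seen and has no test. Estimates of atp2a2a were whole in all 12 libraries and those of atp2a2b were not whole in 11, so reads shared with other transcripts enter the atp2a2b values.

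SERCA3 had 1 gene, atp2a3. It was at 27.2, 24.0 and 24.1 CPM in WT HS and at 34.6, 38.0 and 39.9 CPM in WT MB. The groups did not overlap, with a log2 ratio of 0.57 (SE 0.17, adjusted p = 0.0465, edgeR). The call did not hold with the replicate number as a block (adjusted p = 0.0514, edgeR), with no count filter (adjusted p = 0.0930, edgeR), or without any WT library other than HS replicate 1 (log2 0.44 to 0.63, adjusted p = 0.0696 to 0.263 in edgeR). In the mutant atp2a3 was at 20.5, 27.3 and 19.9 CPM in HS and at 32.1, 30.5 and 32.9 CPM in MB, with no overlap but no call (log2 0.42, SE 0.20, adjusted p = 0.129, edgeR).

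**Figure D2:**
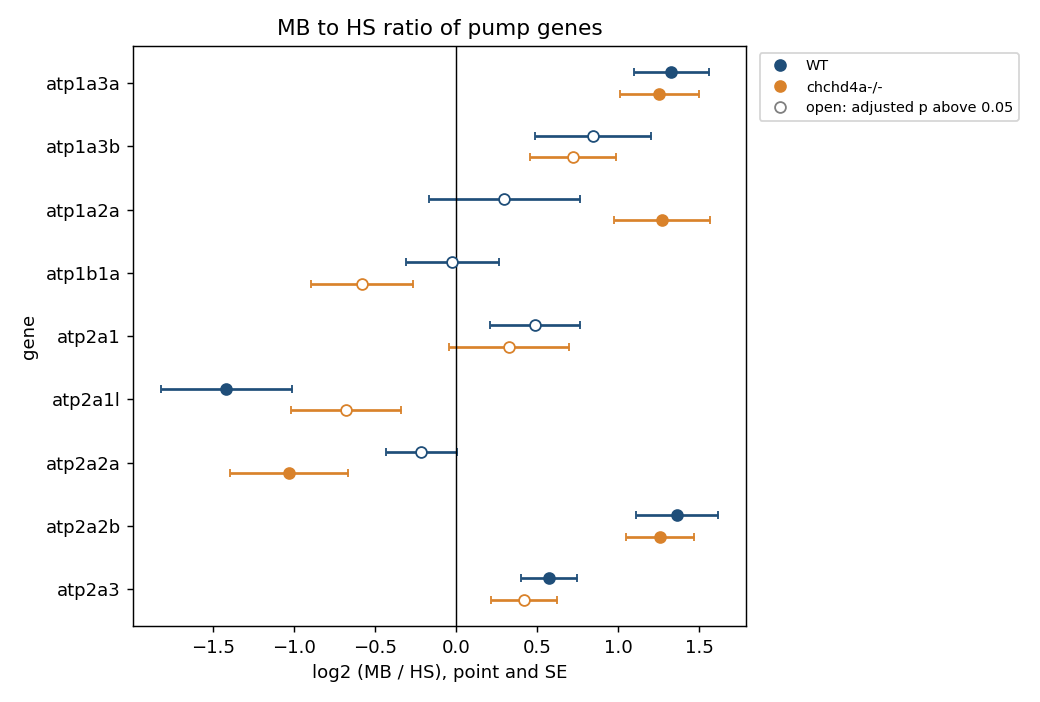
Log2 MB/HS ratio (x axis, point and SE) of each pump gene in WT (blue) and chchd4a-/- (orange) from edgeR, with filled points where the adjusted p was at most 0.05. The ratios of atp1a3a and atp2a2b lie between 1.25 and 1.36 in both genotypes and are filled in both, whereas atp2a1l and atp2a2a lie below 0 and are each filled in 1 genotype.

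Muscle isoforms were compared with neuronal or broadly expressed isoforms within libraries, which makes the result independent of how libraries are scaled. The 3 pairs were atp2a1 to atp2a2b (fast muscle to broadly expressed SERCA), atp2a1 to atp1a3a (fast muscle SERCA to neuronal α3) and atp1a2a to atp1a3a (α2 to α3). Each was tested between fractions and between genotypes by a two-sided exact permutation test over 400 arrangements within strata, for which the smallest p is 0.005, and adjusted by Benjamini-Hochberg over the 6 comparisons. Only differences of a ratio between libraries are read, since the ratio itself depends on gene length.

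The ratio of atp2a1 to atp2a2b was lower in MB. It was 6.99, 6.24 and 6.04 in WT HS and 6.01, 5.20 and 5.57 in WT MB on the log2 scale. In chchd4a-/- it was 6.29, 6.37 and 5.37 in HS and 5.29, 5.09 and 5.14 in MB. The fractions did not overlap within either genotype, and the mean difference was -0.83 over both genotypes (exact permutation p = 0.005, adjusted p = 0.015), -0.83 in WT and -0.84 in the mutant. Within 1 genotype the exact test cannot go below p = 0.1, which both reached. This result is for atp2a2b and does not extend to SERCA2 as a class. The other SERCA2 gene, atp2a2a, had log2 MB/HS ratios of -0.21 in WT and -1.03 in the mutant. Both were below those of atp2a1 (0.48 and 0.33), so the order was the opposite, and that pair was not tested.

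The ratio of atp2a1 to atp1a3a behaved in the same way. Its log2 values were 4.64, 4.46 and 4.37 in WT HS, 3.92, 3.33 and 3.77 in WT MB, 4.89, 5.01 and 4.18 in mutant HS, and 3.92, 3.92 and 3.75 in mutant MB. Again the fractions did not overlap within a genotype, with a mean difference of -0.82 (exact permutation p = 0.005, adjusted p = 0.015). Both differences kept their sign when each of the 12 libraries was left out in turn. Their adjusted exact permutation p was 0.06 when mutant MB replicate 1, 2 or 3 was left out. With same-numbered HS and MB libraries taken as pairs, an alternative chosen after seeing the data, both ratios were lower in MB in 6 of 6 pairs. Neither difference then passed after adjustment over the 6 comparisons (p = 0.0313, the smallest that 64 sign flips allow, adjusted p = 0.0938, exact permutation). Of these 6, only the 3 between fractions were paired, and adjustment over those 3 alone was not made.

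The α2 to α3 ratio did not pass over both genotypes. The log2 ratio of atp1a2a to atp1a3a was -0.99, -2.17 and -2.26 in WT HS and -2.90, -2.58 and -2.55 in WT MB, without overlap. In the mutant it was -1.64, -1.51 and -2.15 in HS and -1.88, -1.38 and -1.78 in MB, where the fractions overlapped. The mean difference MB minus HS was -0.39 (exact permutation p = 0.185, adjusted p = 0.222), from -0.87 in WT (p = 0.1, exact permutation, the smallest possible) and 0.09 in the mutant (p = 0.8, exact permutation). Between same-numbered libraries it was -1.91, -0.42 and -0.29 in WT, so the high WT HS replicate 1 made most of the WT mean. With the libraries paired the exact permutation p was 0.281.

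Between genotypes no ratio passed. The differences mutant minus WT were 0.52 for atp1a2a to atp1a3a (exact permutation p = 0.07, adjusted p = 0.14), -0.42 for atp2a1 to atp2a2b (p = 0.115, adjusted p = 0.173, exact permutation) and 0.19 for atp2a1 to atp1a3a (p = 0.25, adjusted p = 0.25, exact permutation). The first was 0.72 without WT HS replicate 1 (adjusted exact permutation p = 0.03). In MB, all 3 mutant libraries had a higher atp1a2a to atp1a3a ratio than all 3 WT libraries, by 1.00 on average.

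**Figure D3:**
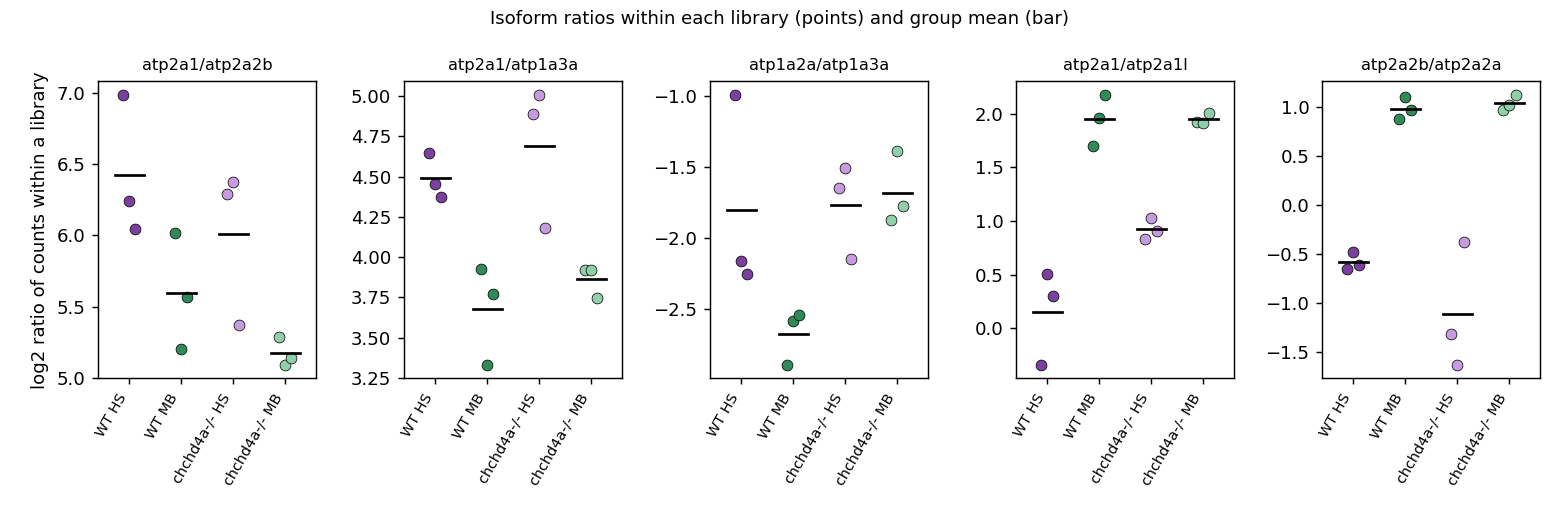
Log2 ratio of counts of 2 pump genes within a library (y axis, 1 panel per pair with its own scale), with 1 point per library and a bar at the mean of each group of 3. In the panels of atp2a1 to atp2a2b and atp2a1 to atp1a3a the MB points (green) lie below the HS points (purple) of the same genotype, and in the untested panels of atp2a1 to atp2a1l and atp2a2b to atp2a2a they lie above.

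Whether the MB to HS ratio itself differed between genotypes was tested as an interaction over all 12 libraries. No member was called (0 of 9), and 0 members had an unadjusted p under 0.05, against 8.09% of genes higher and 5.82% lower. By edgeR 0 of 24897 genes passed in either direction (0% higher and 0% lower), although 3464 had an unadjusted p under 0.05, and DESeq2 called 616 genes higher and 219 lower but no member. With all libraries, the largest differences among members were those of atp1a2a (log2 1.05, SE 0.58, adjusted p = 0.452, edgeR), atp2a1l (0.81, SE 0.53) and atp2a2a (-0.73, SE 0.45). Those of atp1a3a (-0.0020, SE 0.32) and atp2a2b (-0.03, SE 0.32) were near 0. Leaving out WT HS replicate 1 put atp1a2a at 0.32 and atp2a1l at 0.24, and the largest differences were those of atp2a2a (-0.70) and atp1a3b (-0.54). The SEs of the 9 members ran from 0.26 to 0.58. No member was called under any of the 20 alternative settings.

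Mutant and WT were then compared within each fraction. In HS no member was called higher (6.66% of 24897 genes) or lower (11.4%) by edgeR, and at an unadjusted p under 0.05 there was 1 higher, atp2a2a (16% of genes), and 1 lower, atp2a1l (18.2%). For atp2a1l, all mutant HS libraries (708 to 1664 CPM) lay below all WT HS libraries (1787 to 4357 CPM), as 2 of 9 members and 16.8% of genes did. Its log2 ratio was -1.11 (SE 0.38, adjusted p = 0.0579, edgeR), DESeq2 called it (adjusted p = 0.0212), and without WT HS replicate 1 the ratio was -0.51 (adjusted p = 0.323, edgeR). For atp2a2a the log2 ratio was 0.78 (SE 0.32, adjusted p = 0.104, edgeR), with mutant HS replicate 3 at 41.7 CPM, below the WT libraries. Without that library it was 1.097 and was called (adjusted p = 0.0138, edgeR).

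The fitted ratios of the 3 sodium pump α genes were all below 0 in mutant HS with TMM and all libraries, without a call. Without WT HS replicate 1, atp1a3b was at 0.15 and atp1a2a at 0.17, while atp1a3a was at -0.34, and with spike-in totals the 3 were above 0. With all libraries, the log2 ratio was -0.49 for atp1a3a (SE 0.23, adjusted p = 0.155, edgeR), with no overlap of the groups. It was -0.37 for atp1a3b (SE 0.32) and -0.57 for atp1a2a (SE 0.41), each with overlap. The β gene atp1b1a was at 0.57 (SE 0.30, adjusted p = 0.199, edgeR). The members' median was -0.22, against 0.07 for all genes.

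In MB no member differed by more than 0.49 on the log2 scale. None was called higher (0.0201% of genes) or lower (0.0241%) by edgeR, none by DESeq2, and none had an unadjusted p under 0.05 (3.95% of genes higher and 6.35% lower). The neuronal atp1a3a was at -0.49 (SE 0.23, adjusted p = 0.494, edgeR) and atp1a3b at -0.42 (SE 0.32), and atp1a2a was at 0.48 (SE 0.41). Groups did not overlap for 4 members lower in the mutant (15.1% of genes), atp1a3b, atp2a1, atp2a1l and atp2a3, and for 1 higher (13.6%), atp1a2a. The members' median was -0.24, against -0.02 for all genes.

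**Figure D4:**
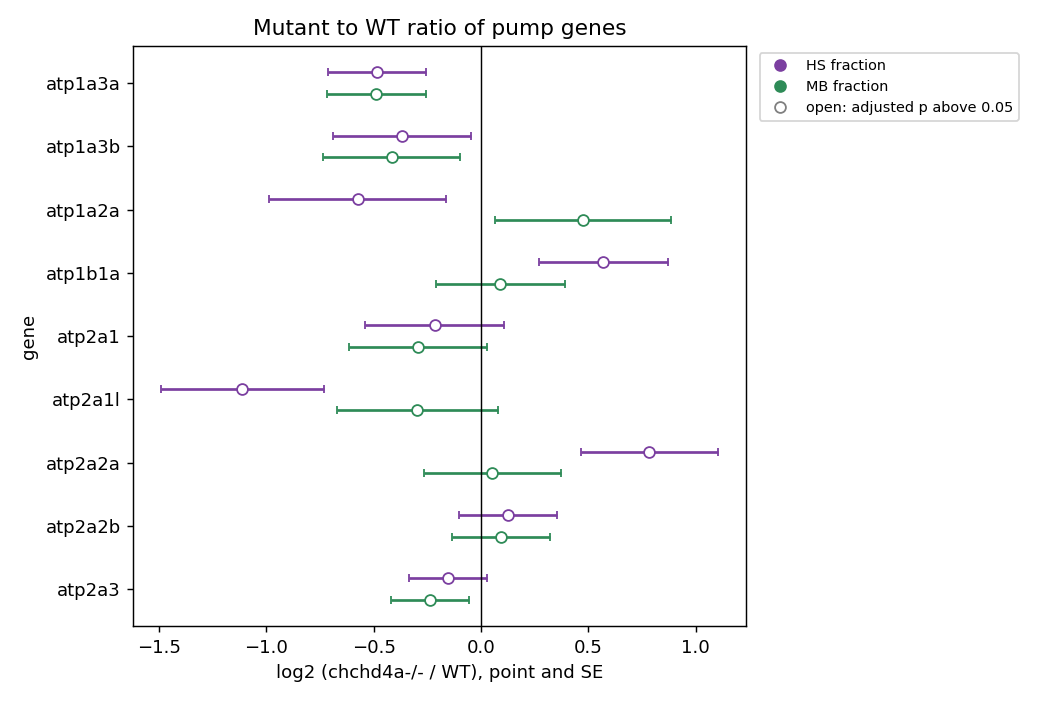
Log2 ratio of chchd4a-/- to WT (x axis, point and SE) of each pump gene in HS (purple) and MB (green) from the fit of 12 libraries, with filled points where the adjusted p was at most 0.05. No point is filled. With spike-in totals all ratios are above 0, the lowest being 1.21 in HS and 0.48 in MB.

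Scaling set the zero of these comparisons. The median of all genes in WT was 0.08 with TMM, 0.58 with library totals and 2.62 with spike-in totals, and in the mutant -0.01, 0.81 and 1.92. Between genotypes in HS it was 0.07 with TMM and 1.82 with spike-in totals. Most genes were therefore called higher with spike-in totals. These were 17805 of 23733 in WT MB against HS, 18108 of 23854 in the mutant, and 13322 of 24897 between genotypes in HS. Counts with spike-in totals below are to be read against these. List counts by DESeq2 or with libraries left out are likewise to be read against all genes in the same fits. DESeq2 called 3681 higher and 4748 lower in WT, and 2684 and 3718 between genotypes in HS. With libraries left out these were 0 to 8413 and 0 to 7806 in WT, and 1721 to 5903 and 2481 to 6036 in the mutant. Between genotypes in HS they were 585 to 1829 and 1303 to 3795. Relative to the median of all genes, over 5 scalings, the WT log2 MB/HS ratio was 1.25 to 1.44 for atp1a3a, 1.28 to 1.36 for atp2a2b and -1.51 to -1.17 for atp2a1l. The mutant values were 1.14 to 1.27 for atp1a3a, 1.19 to 1.28 for atp2a2b and -1.25 to -1.001 for atp2a2a. Scaling moves all genes of a library together, so a ratio relative to the median is bound to change little and is no test of scaling. With spike-in totals, atp2a1l in WT and atp2a2a in the mutant lay above 0 (1.45 and 0.67), as did all members in every comparison of fractions or of genotypes.

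The other genes of both pathways were described by lists chosen by symbol. Of 16 further sodium pump subunits and FXYD regulators, small proteins that tune the pump, 6 were called higher in MB in WT (12.4% of all genes) and 0 lower (13.3%), with a median log2 ratio of 0.43. With spike-in totals 16 were called higher, as were 17805 of all 23733 genes. The largest ratios were those of atp1b4, a β subunit family gene (23.9, 37.7 and 36.1 CPM in HS against 89.9, 130 and 116 CPM in MB; log2 1.77, SE 0.26), and of the β2 gene atp1b2b (9.36, 10.98 and 10.1 CPM against 21.6, 41.6 and 39.4 CPM; log2 1.75, SE 0.28). Their adjusted p were 0.00735 and 0.00888 in edgeR. In the mutant 6 were called higher (17% of all genes) and 2 lower (20%), and 14 and 0 with spike-in totals. The WT count was 9 higher and 1 lower without WT HS replicate 1, 2 without WT HS replicate 2 or 3, 4 without WT MB replicate 1, and 0 without WT MB replicate 2 or 3, and the mutant count was 3 higher without mutant HS replicate 1 and 1 lower without mutant MB replicate 1 or 2.

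The plasma membrane and secretory pathway calcium pumps were next. Plasma membrane calcium pumps, encoded by the atp2b genes, export calcium from the cell, while SERCA stores it. In HS, 6 of the 7 were called lower in the mutant (11.4% of all genes) and 0 higher (6.66%), and the list's median log2 ratio was -2.29 (-2.43 to -1.52 relative to all genes over 5 scalings). On the scale of spike-in totals the median was 0.30 and none was called. The 6 called genes, named after their values were seen, were atp2b1a (-2.29), atp2b1b (-2.35), atp2b2 (-1.50), atp2b3a (-2.32), atp2b3b (-1.54) and atp2b4 (-2.49).

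For atp2b4, WT HS libraries were at 744, 290 and 236 CPM and mutant HS libraries at 65.1, 71.3 and 90.2 CPM, a log2 ratio of -2.49 (SE 0.39, adjusted p = 0.00313, edgeR). The high value was again WT HS replicate 1. Without that library 5 of 7 were called lower, beside 1999 of all 24833 genes, and the median was -1.11. In MB none of the 7 was called by edgeR, and 4 had an unadjusted p under 0.05, all lower (6.35% of all genes). DESeq2 called 1 lower, beside 327 of all 24897 genes. There atp2b4 was at 404, 260 and 272 CPM in WT and at 133, 115 and 135 CPM in the mutant (log2 -1.29, SE 0.37, adjusted p = 0.222, edgeR). Without WT HS replicate 1, 3 were called lower in MB, beside 87 of all 24833 genes.

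Between fractions, none of these 7 was called in WT by edgeR, and 1 had an unadjusted p under 0.05, lower in MB (19.7% of all genes). DESeq2 called 1 lower, beside 4748 of all 23733 genes. Without WT HS replicate 1, 3 were called higher in MB and 1 lower, beside 7035 and 6591 of all 23579 genes. The highest WT ratios were those of atp2c1, the Golgi calcium pump gene (0.81), and atp2b2 (0.21), and the lowest those of atp2b3a (-0.99) and atp2b3b (-0.91), none called. In the mutant 4 were called higher in MB (17% of all genes) and 0 lower (20%), with a median of 0.69. With spike-in totals 6 were called higher in WT and 7 in the mutant. Beside these genes, edgeR called no SERCA gene between genotypes in either fraction, and DESeq2 called atp2a1l lower in HS. With spike-in totals 4 SERCA genes and 0 of these 7 were called higher in mutant HS. The difference between the SERCA genes and these pumps was not tested.

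Matched genes of calcium handling at the sarcoplasmic reticulum and of related ER channels numbered 18. In WT, 0 were called higher in MB by edgeR (12.4% of all genes) and 4 lower (13.3%). At an unadjusted p under 0.05 there were 3 higher (21.8%) and 4 lower (19.7%), and DESeq2 called 1 higher. The balance turned with the scaling, with 5 higher and 2 lower by library totals and 14 and 0 by spike-in totals. Over all 23733 genes it turned as well, to 7997 higher and 1677 lower by library totals and 17805 and 18 by spike-in totals. The lowest ratios were those of jph2, which ties the reticulum to the plasma membrane (297, 167 and 143 CPM in HS against 53.3, 36.7 and 40.5 CPM in MB; log2 -2.22, adjusted p = 0.00787, edgeR), and of stac3, an adaptor of the muscle calcium channel (-1.54, adjusted p = 0.00755, edgeR). The highest were those of the IP3 receptor gene itpr1a (0.98, not called) and the calsequestrin gene casq1a (0.92, adjusted p = 0.0513, edgeR). In the mutant 5 were called higher (17% of all genes) and 3 lower (20%), and 13 and 0 with spike-in totals. Among the lower with TMM were jph2 (-2.05) and stac3 (-1.57) again. The WT count was 6 higher and 5 lower without WT HS replicate 1, and 0 in both directions without WT MB replicate 2 or 3; the higher count in the mutant was 1 without mutant HS replicate 1, 2 without mutant MB replicate 2, and 3 without mutant HS replicate 3 or mutant MB replicate 1, with 5 lower without mutant HS replicate 3.

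Sodium/calcium exchangers use the sodium gradient that the sodium pump builds. Of 5 matched, none was called in WT by edgeR or DESeq2. At an unadjusted p under 0.05, 3 were higher in MB (21.8% of all genes) and 1 lower (19.7%). With the replicate block 2 were called higher and 1 lower, beside 5079 and 4026 of all 23733 genes. The highest WT ratios were those of slc8a2b (1.25) and slc8a4a (1.15), and the lowest those of slc8a3 (-1.13) and slc8a4b (0.05). In the mutant 2 were called higher in MB (17% of all genes), slc8a2b (log2 1.55) and slc8a4a (1.68), and 1 without mutant HS replicate 1. With library totals 5 were called higher in the mutant (12524 of all 23854 genes) and 3 in WT (7997 of 23733). With spike-in totals 5 were called higher in the mutant (18108 of 23854) and 4 in WT (17805 of 23733). Without WT HS replicate 1, 3 were called higher in WT (7035 of 23579). In HS 2 were called lower in the mutant than in WT (11.4% of all genes), slc8a3 (-2.63) and slc8a4a (-1.52), and 3 by DESeq2. With spike-in totals 0 were called lower and 1 higher. The count of 2 was 1 without WT HS replicate 1 or without mutant HS replicate 1 or 3, and up to 4 without WT HS replicate 3. Their levels were low, with slc8a3 at 7.14, 3.09 and 2.56 CPM in WT HS and at 0.608, 0.611 and 0.823 CPM in mutant HS.

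**Figure D5:**
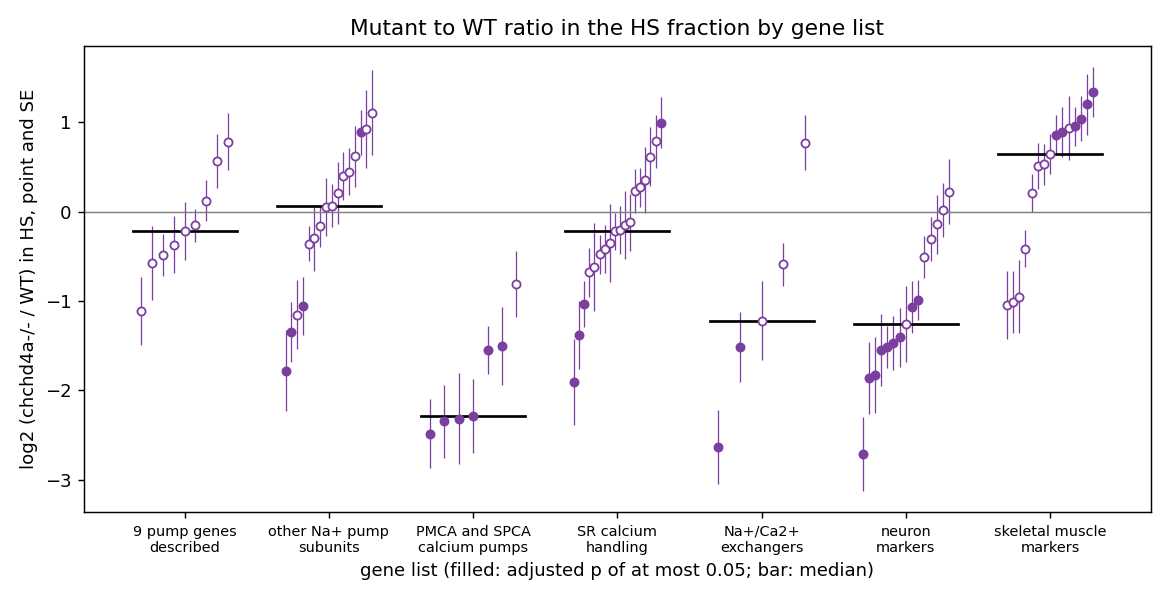
Log2 ratio of chchd4a-/- to WT in the HS fraction (y axis, point and SE) for the 9 matched pump genes, 4 related gene lists and 2 marker lists, each gene 1 point, with a bar at each list's median and filled points for called genes (adjusted p up to 0.05). The plasma membrane and secretory pathway calcium pumps (PMCA and SPCA) have a median of -2.29 with 6 of 7 filled, and the 9 pump genes a median of -0.22 with none filled; with spike-in scaling the former median is 0.30.

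Markers of muscle and neurons moved with fraction and, in HS, with genotype. In MB, edgeR called 0 of the 15 matched markers of either list between genotypes, beside 5 higher and 6 lower of all 24897 genes. The median log2 ratios there were 0.10 for muscle and -0.20 for neurons, and DESeq2 called 2 neuronal markers lower. The 15 matched skeletal muscle markers, none at 0, summed to 27912 to 29565 CPM in WT HS, 19827 to 23482 in WT MB, 40476 to 66756 in mutant HS and 14547 to 23624 in mutant MB. Of these, 8 were called lower (13.3% of all genes) and 3 higher (12.4%) in MB in WT, and 10 (20%) and 3 (17%) in the mutant, whereas atp2a1 was at 0.48 and 0.33, not called. The lowest WT ratios were those of the parvalbumin gene pvalb1 (-1.50) and the creatine kinase gene ckmb (-1.42), and the highest those of the myosin heavy chain genes myhz2 (1.73) and myhz1.1 (1.54). The balance was the opposite with spike-in totals, with 0 lower and 7 higher in WT and 0 and 5 in the mutant. The WT counts were 0 higher and 2 lower without WT HS replicate 2 and 0 in both directions without WT MB replicate 2 or 3. In HS 6 were called higher in the mutant (6.66% of all genes) and 0 lower (11.4%), whereas atp2a1 and atp2a1l were at -0.22 and -1.11 (0.03 and -0.51 without WT HS replicate 1). That count was 11 with spike-in totals, 2 without WT HS replicate 3 or mutant HS replicate 2, and 3 without mutant HS replicate 1.

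The 15 matched neuronal markers, none at 0, summed to 6619 to 9046 CPM in WT HS, 2580 to 2763 in WT MB, 2036 to 4624 in mutant HS and 2049 to 2373 in mutant MB. In MB 9 were called lower (13.3% of all genes) and 2 higher (12.4%) in WT, and 4 (20%) and 2 (17%) in the mutant, while atp1a3a was higher in MB in both. With spike-in totals 0 were called lower and 4 higher in WT, and 0 and 11 in the mutant. The lowest WT ratios were those of the neurofilament genes nefmb (-2.77) and nefma (-2.25), and the highest those of sypa (1.31) and sypb (0.98), which encode synaptophysins of the synaptic vesicle membrane. The lower count was 0 without WT MB replicate 2 or 3, and in the mutant it was 9 without mutant HS replicate 2, 2 without mutant HS replicate 1 or mutant MB replicate 1 or 3, and 1 without mutant MB replicate 2. In HS 9 were called lower in the mutant (11.4% of all genes) and 0 higher (6.66%), 4 without mutant HS replicate 1 and 0 with spike-in totals, beside -0.49 for atp1a3a, which was not called.

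Markers of glia, of ionocytes and pronephros, and of blood and endothelium, 8 matched of each and none at 0, lay mostly on the MB side in WT. In the mutant, blood and endothelial markers were called in both directions alike. The glial markers summed to 1029 to 1783 CPM in WT HS, 1941 to 2954 in WT MB, 757 to 792 in mutant HS and 984 to 1524 in mutant MB. In MB 5 were called higher (12.4% of all genes) and 0 lower (13.3%) in WT, and 3 (17%) and 0 (20%) in the mutant, led in WT by slc1a3b (2.59), a glutamate transporter gene, and the myelin gene mpz (1.89). The WT count was 3 without WT HS replicate 2 or 3. All 8 were below 0 in mutant MB against WT (median -0.79, and 0.31 with spike-in totals), with 0 called by edgeR, 2 by DESeq2 and 4 at an unadjusted p under 0.05. Ionocyte and pronephros markers summed to 103.7 to 160 CPM in WT HS, 263 to 511 in WT MB, 146 to 186 in mutant HS and 466 to 517 in mutant MB. Of these, 3 were called higher in MB in WT (12.4% of all genes), 6 with the replicate block and 5 by DESeq2. In the mutant 6 were called higher (17%), and 0 were lower in either genotype (13.3% and 20%). Blood and endothelial markers summed to 89.0 to 116 CPM in WT HS, 127 to 160 in WT MB, 126 to 153 in mutant HS and 132 to 169 in mutant MB. In MB 5 were called higher (12.4% of all genes) and 1 lower (13.3%) in WT, and 3 (17%) and 3 (20%) in the mutant. The WT higher count was 2 without WT HS replicate 2 and 3 without WT HS replicate 3 or WT MB replicate 1, and the mutant lower count was 0 without mutant MB replicate 1 or 2. For these 3 lists the WT counts were 0 without WT MB replicate 2 or 3, and with spike-in totals 7 to 8 of 8 were called higher in WT and 6 to 8 in the mutant. The part of the markers in the results for the pump genes was not tested.

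Genes whose log2 CPM followed the pump genes most closely over the 12 libraries were taken among 9612 genes with a mean of at least 10 CPM, as a description, since the libraries share 4 groups. For atp1a3a, the 5 with the highest Pearson correlation were clstn3 (0.991), tenm3 (0.991), kirrel3l (0.989), tnc (0.988) and TM9SF2 (0.987). Those named clstn3, tenm3 and kirrel3l encode membrane proteins of the cell surface. For atp2a1 they were col1a1b (0.951), bmp1a (0.942), PTPRK (0.941), fzd6 (0.925) and COL12A1 (0.920), among which no skeletal muscle marker of the list appeared.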

How the data were processed

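PolyA RNA of 12 libraries (4 groups of 3) was sequenced in pairs of 75 nt reads with a stranded kit and ERCC spike-ins. The authors estimated counts per transcript with Salmon 1.4.0 against GRCz11 (danRer11) transcripts, and the deposited tables hold expected counts summed per gene, not scaled, 30.5% of them not whole. How reads of paralogs were divided can therefore move values between them. Expected counts were rounded here. Genes with more than 50 counts over the libraries of a fit were tested with edgeR 4.0.16 (R 4.3.3, quasi-likelihood F test, TMM, prior count 0.125), with Benjamini-Hochberg adjustment over all genes and calls at 0.05. Fits of 6 libraries compared fractions within a genotype, and a fit of 12 gave the interaction, genotype contrasts and CPM. The edgeR test gives no SE. Each SE printed is the absolute log2 ratio divided by the square root of the F statistic. Spike-ins (92) stayed out of totals and tests. CPM hides differences in total RNA, and the spread between 3 libraries, not depth, limits precision. Spike-ins were added to 2 µg of RNA from each sample before polyA capture. With this fixed input, spike-in totals do not give RNA per fraction or larva either.

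Within-library ratios used log2 of counts plus 0.5. The study's supplement gave 6469 symbols and reference annotation gave 22682, and 105 of 142 list symbols matched. Members and lists were chosen with earlier results of these data known. The rule's 1 further member and some list genes are not reported here. All other members are named, and from a list the 2 genes with the largest and the 2 with the smallest WT ratio could be named, and others are marked.

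Deviations of same-numbered HS and MB libraries correlated at 0.490 to 0.595 in WT and 0.116 to 0.508 in the mutant. Separate numbers correlated at -0.574 to 0.511 in WT and -0.448 to 0.253 in the mutant. WT HS replicate 3 followed MB replicate 2 (0.511) more closely than MB replicate 3 (0.490). Mutant HS replicate 2 followed MB replicate 1 (0.197) more closely than MB replicate 2 (0.116). For the other HS libraries the same number correlated highest. Whether replicate numbers pair fractions is thus not settled. Pairing was used only in alternatives, and the main fits and permutation tests took libraries as unpaired. Whether replicates are separate fractionations is not stated for these labels, so p-values measure the spread between these libraries. Alternatives were DESeq2 1.42.0, library totals, spike-in totals, TMM without mtDNA genes, no filter, at least 10 counts per library, an adjusted p of 0.01, the replicate block, all 12 libraries in one fit, leaving out libraries and, for the ratios and chosen after seeing the data, sign flips within pairs. Scripts were tested on simulated data and ran under scipy 1.17.1, pandas 2.3.3, numpy 2.4.6 and Python 3.11.15.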

Additional observations from a re-analysis of the deposited data

How the results depend on the processing

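The direction of atp1a3a and atp2a2b between fractions held under every alternative in both genotypes. At an adjusted p of at most 0.01 the WT calls fell to 0 higher and 0 lower, and the mutant lower call to 0. Library totals gave 5 higher and 0 lower in WT and 6 and 0 in the mutant, beside 7997 of 23733 and 12524 of 23854 genes higher. Spike-in totals gave 8 and 0 in WT, 6 and 0 in the mutant and 7 higher between genotypes in HS. Of all genes, 17805 of 23733, 18108 of 23854 and 13322 of 24897 were then called higher. No filter left 0 lower in WT, a minimum of 10 counts left 0 lower in the mutant, and DESeq2 called 1 lower between genotypes in HS. Leaving out libraries gave 0 to 6 higher and 0 to 1 lower in WT, 2 to 5 and 0 to 2 in the mutant, and 0 to 1 in either direction between genotypes in HS. Leaving out replicate 1 of both WT fractions gave 6 higher. Log2 differences of within-library ratios ranged from -0.99 to -0.69 for atp2a1/atp2a2b, from -0.95 to -0.74 for atp2a1/atp1a3a between fractions, and from 0.40 to 0.72 for atp1a2a/atp1a3a between genotypes. With libraries paired by replicate number, a test chosen after seeing the data, the first 2 kept their differences (-0.83 and -0.82). Both missed the threshold after adjustment over the 6 comparisons, of which only the 3 between fractions were paired (p = 0.0313, the smallest that 6 pairs allow, adjusted p = 0.0938, exact permutation).

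With spike-in totals, which moved the median of all genes, all members lay above 0 between fractions and between genotypes. Among genes called with either scaling, signs changed in WT for atp1b1a (2.50), atp2a2a (2.38) and atp2a1l (1.45), in the mutant for atp2a2a (0.67), and between genotypes in HS for atp2a1 (1.92), atp1a3b (1.88), atp1a2a (1.85) and atp2a3 (1.76). The cause was not tested.

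Of all genes, 2948 were called higher and 3165 lower in WT, against 367 and 780 at 0.01, 3681 and 4748 by DESeq2, 7997 and 1677 with library totals, 17805 and 18 with spike-in totals, 5079 and 4026 with the replicate block, and 0 to 8413 and 0 to 7806 with libraries left out. In the mutant 4065 and 4779 became 1367 and 2406 at 0.01, 12524 and 1362 with library totals, 18108 and 35 with spike-in totals, and 1721 to 5903 and 2481 to 6036 with libraries left out. Between genotypes in HS, 1658 and 2839 became 338 and 1234 at 0.01, 2684 and 3718 by DESeq2, 13322 and 48 with spike-in totals, and 585 to 1829 and 1303 to 3795 with libraries left out. In MB, 5 and 6 became 163 and 327 by DESeq2, 17 and 2 with spike-in totals, and 2 to 49 and 1 to 87 with libraries left out. The interaction's 0 and 0 became 616 and 219 by DESeq2, 297 and 6 with library totals, 2 and 7 with spike-in totals, 0 to 13 and 0 to 2 with libraries left out, and 695 and 107 with the replicate block, but no member was called. The block changed 2 calls of members: in WT atp2a3 was lost (adjusted p = 0.0514, edgeR), and in the mutant atp1a3b was gained (adjusted p = 0.0243, edgeR). It could not be fitted between genotypes within a fraction, since blocks lie within genotypes.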
